A study of Mus musculus with 4 samples.

Results

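The myogenic regulatory factors *Pax7*, *Myf5*, *Myod1*, *Myog* and *Myf6*, their partner *Mef2c* and the fusion gene *Mymk* were followed through the muscle lineage cells of the mouse fracture callus. Single-cell RNA sequencing (scRNA-seq) gives each captured mRNA molecule a unique molecular identifier (UMI), so 1 UMI stands for 1 captured molecule. A cell was assigned to the muscle lineage when it held at least 1 UMI of *Pax7*, *Myod1* or *Myog* in sum, at least 1 UMI of *Des*, which encodes the intermediate filament protein desmin, and no UMI of *Ptprc*, the CD45 gene of blood cells. This gate took 833 of 25479 kept cells (3.27%); the kept cells were those of 34038 barcodes that passed limits on UMIs, detected genes and mitochondrial UMIs. The 7 genes were all present among the 32285 genes of the files.

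The cells came from tibial fracture callus of C57BL/6J wild-type mice, 3 months old, at 4 and 7 days post-fracture (dpf). The mice were male by the methods of the study. RA mice had received K/BxN serum, which transfers arthritis, by injections that the methods describe as repeated from the day of fracture. Control mice had received vehicle, and no group carried a transgene. Each of the 4 libraries (control_4d, control_7d, RA_4d and RA_7d) was 1 pool of callus, given as 4 animals in the labels and 3 in the methods. With 1 library for each condition and day no test between conditions was made, and the 95% intervals below cover counting error only. The tissue was scraped along the bone surface and digested, so that these cells are those that tissue, and any muscle attached to it, released.

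Skeletal muscle is rebuilt from satellite cells, the stem cells that lie under the sheath of the muscle fibre and are marked by the paired-box factor *Pax7*. Once activated they switch on the basic helix-loop-helix factors *Myf5* and *Myod1*, divide as myoblasts, and then switch on *Myog* (myogenin), with which they leave the cell cycle and differentiate. *Mef2c* is a MADS-box factor that works beside these factors on contractile genes. *Mymk* (myomaker) and *Mymx* (myomixer) encode membrane proteins that fuse myoblasts into myotubes. *Myf6* (MRF4) is best known from differentiated fibres, although it is transcribed from the same locus as *Myf5*.

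The myogenic factors act on E-boxes (CANNTG, which reads the same on both strands). The 250 bases before the RefSeq start are shown here for *Myog*, which rose between its own steps, and *Myf5*, which fell. Every E-box is in capitals. Of the 7 genes, 4 had a start region in the RefSeq table for GRCm38.p6, the build that mm10 denotes.
*Myog*, chr1:134289754-134290003, + strand: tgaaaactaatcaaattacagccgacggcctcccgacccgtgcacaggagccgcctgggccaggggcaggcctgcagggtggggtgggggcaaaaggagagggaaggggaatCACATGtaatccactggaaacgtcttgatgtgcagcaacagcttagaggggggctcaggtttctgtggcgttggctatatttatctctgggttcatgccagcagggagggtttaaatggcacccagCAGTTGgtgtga
*Myf5*, chr10:107486135-107486384, − strand: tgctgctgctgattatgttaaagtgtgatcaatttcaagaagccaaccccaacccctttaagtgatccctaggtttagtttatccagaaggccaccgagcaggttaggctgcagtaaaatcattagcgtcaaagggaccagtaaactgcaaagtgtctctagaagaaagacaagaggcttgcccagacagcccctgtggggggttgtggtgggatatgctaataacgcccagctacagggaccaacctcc
The *Myog* stretch held 2 E-boxes, CACATG at 138 and CAGTTG at 12 bases before the start, and the *Myf5* stretch held 0. The 3 stretches of *Mef2c*, which also rose, held 2, 0 and 1, and that of *Pax7* held 0. Of all 32851 stretches of the same length, 66.2% held at least 1 E-box and 31.8% at least 2. A match of these letters is a description and not a binding site.

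In GENCODE M21 for GRCm38 the genes lie on chromosome 4 from 139737062 to 139833528 (*Pax7*), chromosome 7 from 46376474 to 46379099 (*Myod1*), chromosome 1 from 134289989 to 134292548 (*Myog*), chromosome 2 from 27061636 to 27072179 (*Mymk*) and chromosome 13 from 83504034 to 83667080 (*Mef2c*). *Myf5* (chromosome 10, 107482908 to 107486134) and *Myf6* (chromosome 10, 107492853 to 107494737) are neighbours on the same strand with 6718 bases between them. The counts were made per gene from 3′ reads, so the part of the gene a UMI came from is not known.

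The label was checked against the muscle markers *Cdh15*, *Itga7*, *Chodl*, *Fgfr4*, *Musk* and *Megf10*, none of which the gate used. Of the 833 cells, 771 held at least 3 of these 6 markers and 7 held none. *Cdh15*, which encodes the satellite cell adhesion protein M-cadherin, was found in 75.9 to 91.7% of the gated cells of a library and in 0.882 to 1.5% of the other cells. Levels are given as UMIs per 1000000 UMIs (CPM). Of the 6 haematopoietic markers, *Ptprc* was at 0 by the gate and *Cd3e* was at 0 in all 4 libraries, and the list summed to 34.4 to 58.9 CPM, most of it *Lyz2* (23.4 to 42.0 CPM) or *S100a8*. The 3 endothelial markers *Pecam1*, *Cdh5* and *Kdr* summed to 25.3 CPM in control_4d, 45.4 CPM in control_7d, 35.4 CPM in RA_4d and 67.8 CPM in RA_7d, with *Cdh5* between 4.98 and 21.5 CPM. In the other cells of a library these lists summed to at least 2113 and 280.0 CPM. *Sox10* and *Kcnj8* each lay under 7 CPM. *Rgs5* and *Myh11*, markers of pericytes and smooth muscle, were at 125 and 185 CPM in the gated cells of RA_7d, against 0.865 to 8.19 CPM (*Rgs5*) and 0.957 to 34.96 CPM (*Myh11*) in the other libraries. *Acta2*, of the same list, was at 371 to 1082 CPM in the gated cells, above the other cells of each library (181.8 to 348.5 CPM). Over the steps defined below, *Acta2* went from 449 CPM in *Pax7* alone to 2023 CPM in *Myog* with *Mymk*. *S100a8*, a neutrophil gene, was at 30.6 CPM in RA_4d and 2.38 to 6.42 CPM elsewhere. *Col3a1*, a mesenchymal collagen gene, was between 700 and 2451 CPM. The mesenchymal marker *Prrx1* was found in 66.4 to 77.9% of the gated cells and in 24.5 to 59.85% of the other cells. Its level was 149 to 200 CPM in the gated cells and 171 to 450 CPM in the others. *Postn* was at 139 to 485 CPM and 823 to 2765 CPM. For *Mef2c*, values without such cells are given with its levels by day; for the other genes the part of these markers was not tested.

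The limits of the gate cut through cells of low counts. Among the 833 cells, 57 passed with exactly 1 UMI over *Pax7*, *Myod1* and *Myog*, and 99 with exactly 1 *Des* UMI. Outside it, 148 kept cells held a UMI of the 3 factors but neither *Des* nor *Ptprc*, and 57 of them had at least 3 muscle markers. No muscle lineage cell shared its barcode with a muscle lineage cell of another library, although 5 to 15 barcodes were shared between the kept cells of any pair of libraries. The libraries differed in depth. The median UMI count of a muscle lineage cell was 25293 at 4 dpf and 14873 at 7 dpf in control, and 18592 and 10368 in RA, so shares of cells with a UMI are also given after each cell was thinned at random to 4000 UMIs.

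Across the callus, 6 of the 7 genes belonged to this lineage and *Mef2c* did not. The muscle lineage cells held 84.6% of all *Pax7* UMIs of the kept cells, 82.7% of those of *Myf5*, 85.4% of those of *Myod1*, 84.1% of those of *Myog*, 82.6% of those of *Mymk* and 65.5% of the few of *Myf6*, the shares of *Pax7*, *Myod1* and *Myog* being raised by the gate. In endothelial cells and pericytes, which should lack these genes, *Myf5* was found in 0.121% of 3297 and 0 of 659 cells, and *Mymk* in 0.0607% and 0.152%. In the 11575 cells with a *Ptprc* UMI the shares were 0.639% (0.502 to 0.802%) for *Myf5* and 0.207% for *Mymk*, but some of those cells also held muscle markers. In the muscle lineage cells *Myf5* was found in 68.2% and *Mymk* in 12.6%.

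*Mef2c* had the opposite distribution. It was found in 95.3% of 3297 endothelial cells (*Pecam1* and *Cdh5*), 89.1% of 659 pericytes (*Rgs5*), 60.6% of the *Ptprc*-positive cells, 55.3% of 8365 mesenchymal cells (*Prrx1* or *Pdgfra*), 52.2% of 301 Schwann cells (*Sox10*) and 18.9% (16.3 to 21.7%) of the muscle lineage cells. Its level was 52.8 CPM in muscle lineage cells, 392 CPM in endothelial cells and 457 CPM in pericytes. The muscle lineage held 1.13% of the *Mef2c* UMIs of the callus. Most *Mef2c* UMIs thus lay outside the lineage, and most *Myf5* and *Mymk* UMIs inside it.

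**Figure D1:**
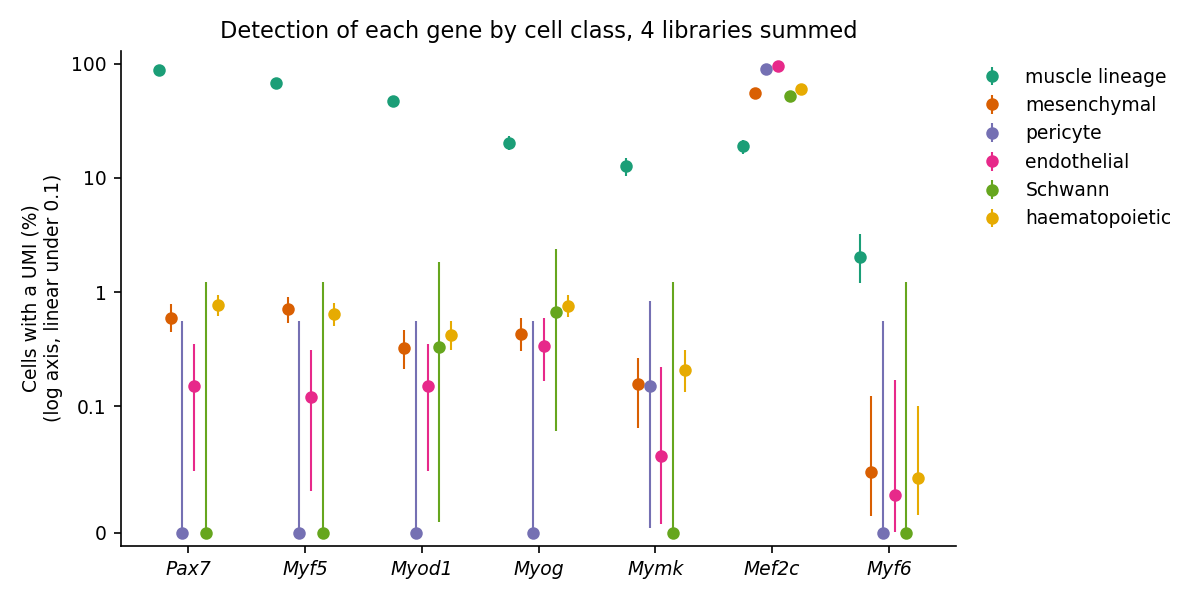
Share of cells with at least 1 UMI of each gene (y axis, percent, logarithmic above 0.1) by cell class over the 4 libraries; points are shares and bars exact 95% intervals. Muscle lineage cells are highest for 6 genes and lowest for *Mef2c*, at 18.9%. The shares of *Pax7*, *Myod1* and *Myog* in muscle lineage cells are partly set by the gate.

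The 833 cells were divided into 5 steps by the textbook order, with 1 UMI as detection. *Pax7* without *Myod1* and *Myog* (*Pax7* alone) held 407 cells (48.9%), and *Pax7* with *Myod1* and without *Myog* held 239 (28.7%). *Myod1* without *Pax7* and *Myog* was found in 19 cells (2.28%). *Myog* without *Mymk* held 71 cells (8.52%), and *Myog* with *Mymk*, the fusion-competent end of the sequence, 97 (11.6%). The lineage in the callus was thus mostly at the *Pax7*-positive steps, and the step between *Pax7* and *Myog* was nearly empty. In RA_4d it held 0 of 100 cells, since all 100 held a *Pax7* UMI. This 0 allows a share of up to 3.00% at 3 counts of the total, while the exact interval in the plot of steps reaches 3.62%. After thinning to 10000 UMIs this step took 5.76%, 5.18%, 1.32% and 2.70% of control_4d, control_7d, RA_4d and RA_7d. Only cells that still held a UMI of *Pax7*, *Myod1* or *Myog* were counted there.

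*Pax7* alone was the most frequent step in each library. It took 51.9% (44.4 to 59.4%) of the cells of control_4d, 45.5% (39.4 to 51.7%) of control_7d, 55.0% (44.7 to 65.0%) of RA_4d and 47.9% (42.0 to 53.9%) of RA_7d. The step *Pax7* with *Myod1* took 25.4% and 24.4% of the control libraries and 33.0% and 33.2% of the RA libraries, with overlapping intervals. After thinning to 10000 UMIs, which left out the shallower cells, these were 15.8% and 20.2% in control and 14.5% and 16.9% in RA. The higher RA shares were not seen there. After thinning to 4000 UMIs they were seen, at 9.09% and 10.15% in control and 19.28% and 19.35% in RA. The shares at both depths are of the cells that still held a UMI of *Pax7*, *Myod1* or *Myog*. *Myog* with *Mymk* took 9.94% (6.00 to 15.3%) of control_4d, 15.04% (11.0 to 19.9%) of control_7d, 8% (3.52 to 15.2%) of RA_4d and 10.8% (7.48 to 15.03%) of RA_7d. The 4 intervals of this step overlap. Without the upper limits of the cell filter, an alternative added after seeing the data, the step took 15.2% of control_4d, 15.1% of control_7d, 15.75% of RA_4d and 11.0% of RA_7d, so RA_4d went from the lowest share to the highest.

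**Figure D2:**
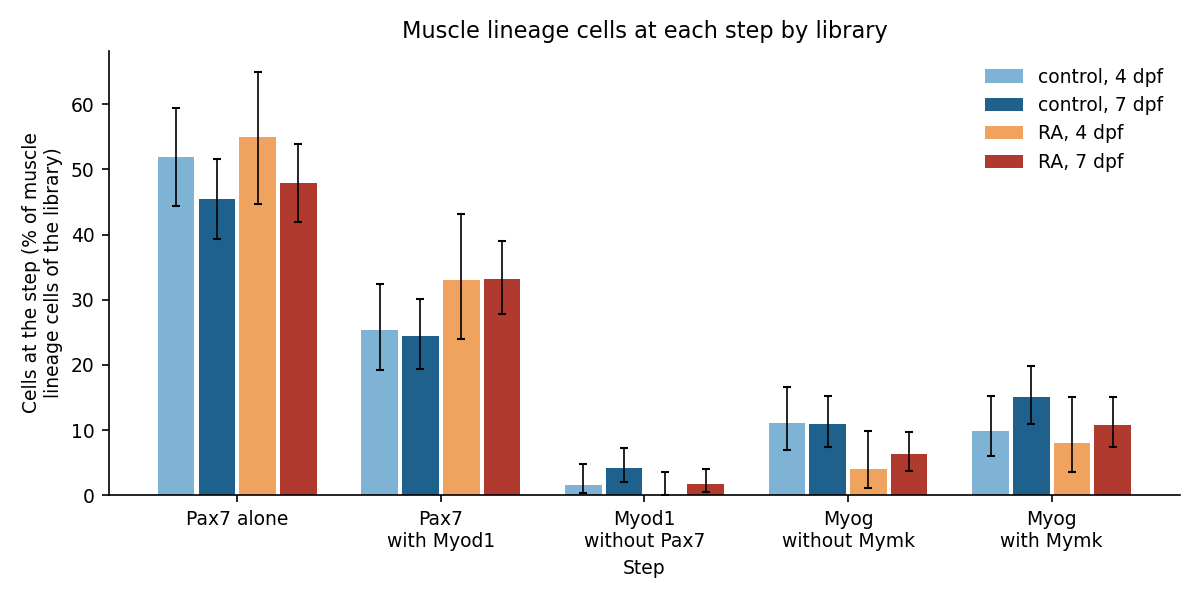
Share of the muscle lineage cells of a library at each step (y axis, percent); bars are shares and error bars exact 95% intervals for counting error, with 181, 266, 100 and 286 cells in control_4d, control_7d, RA_4d and RA_7d. *Pax7* alone is the tallest bar of each library, and *Myod1* without *Pax7* the lowest.

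Single cells often held the factors of more than 1 step. Of the 168 cells with a *Myog* UMI, 91 (54.2%) still held *Pax7* and 134 (79.8%) held *Myod1*. Of the 105 cells with a *Mymk* UMI, 97 (92.4%) held *Myog* and 83 (79.0%) held *Mymx*, and the 8 with *Mymk* and no *Myog* were counted at the earlier steps. Of the 568 cells with *Myf5*, 546 (96.1%) held *Pax7*, a gate gene found in 88.5% of all 833 cells. *Myf5* was found in 74.1% of the cells with *Pax7* and in 22.9% of the 96 without. The gate, which asks for *Pax7*, *Myod1* or *Myog*, partly sets these overlaps and that of *Mymk* with *Myog*. *Pax7* was found in 24 of 38 *Myog* cells of control_4d, 34 of 69 of control_7d, all 12 of RA_4d and 21 of 49 of RA_7d. All 100 gated cells of RA_4d held *Pax7*, so its value is not particular to the *Myog* cells. In control_4d, control_7d and RA_7d 90.6%, 82.7% and 88.5% of the gated cells did. The 12 cells of RA_4d also all held *Myod1*.

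*Myf5* was not used to define the steps, and it fell along them. Its level in the sums over the 4 libraries was 223 CPM in *Pax7* alone, 181 CPM in *Pax7* with *Myod1*, 106 CPM in *Myod1* without *Pax7*, 49.9 CPM in *Myog* without *Mymk* and 19.1 CPM in *Myog* with *Mymk*. The last level was 11.2-fold under the first, on (CPM + 1) values, and lower in 4 of 4 libraries. By share of cells, *Myf5* was found in 80.8% of *Pax7* alone and 20.6% of *Myog* with *Mymk*. The values in *Pax7* alone were close between libraries, at 234 CPM in control_4d, 223 CPM in control_7d, 215 CPM in RA_4d and 215 CPM in RA_7d, whereas in *Myog* with *Mymk* they were 8.76, 25.8, 50.02 and 1.67 CPM.

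*Pax7* itself fell where the steps left it free to vary. Among cells with a *Pax7* UMI by definition it was at 359 CPM in *Pax7* alone and 282 CPM in *Pax7* with *Myod1*. At the 2 *Myog* steps it was at 106 and 54.7 CPM. In *Myog* with *Mymk* the level was 40.3 CPM in control_4d, 35.2 CPM in control_7d and 23.4 CPM in RA_7d, and 182 CPM in RA_4d, whose 8 cells stood apart from the other libraries.

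*Myod1* differed from *Pax7* and *Myf5* in that it was held to the end of the sequence. It was at 159 CPM in *Pax7* with *Myod1*, 124 CPM in *Myog* without *Mymk* and 226 CPM in *Myog* with *Mymk*, and was found in 67.6% and 88.7% of the cells of the *Myog* steps. At the last step its level was 271 CPM in control_4d, 207 CPM in control_7d, 241 CPM in RA_4d and 201 CPM in RA_7d. That level was above the preceding step in 4 of 4 libraries.

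*Myog* rose between its own 2 steps. It was at 303 CPM in *Myog* without *Mymk* and 2134 CPM in *Myog* with *Mymk*, and the latter was 2751, 1901, 1471 and 2253 CPM in control_4d, control_7d, RA_4d and RA_7d. A few cells carried much of this. The 5 cells with most *Myog* held 45.1% of the *Myog* UMIs of control_4d, 35.5% of control_7d, 94.0% of RA_4d and 33.2% of RA_7d, and single cells reached 118 to 204 UMIs. *Mymx*, which encodes the partner of *Mymk* in fusion, rose with it, from 33.5 CPM in *Myog* without *Mymk* to 353 CPM in *Myog* with *Mymk*, higher in 4 of 4 libraries.

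*Mef2c* was low and flat over the early steps and rose late. It was at 27.1 CPM in *Pax7* alone, 23.0 CPM in *Pax7* with *Myod1*, 51.2 CPM in *Myog* without *Mymk* and 180 CPM in *Myog* with *Mymk*. The last step was above *Pax7* alone in 4 of 4 libraries, but its size depended on the day. In *Myog* with *Mymk*, *Mef2c* was at 31.5 CPM in control_4d and 50.02 CPM in RA_4d, and at 243 CPM in control_7d and 306 CPM in RA_7d. A few cells carried most of the 7 dpf values. Of the 305 *Mef2c* UMIs of control_7d, single cells of this step held 87, 35, 33 and 19, among its 40 cells. Of the 335 of RA_7d, single cells of the step held 53, 32, 30 and 23, among its 31 cells. The Poisson intervals do not cover this spread between cells.

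*Myf6* was almost absent, with 19 UMIs in 17 of 833 cells (2.04%, 1.19 to 3.25%). All 17 held *Pax7*, 14 (82.4%) held *Myf5* and 1 (5.88%) held *Myog*, where 88.2%, 67.9% and 20.5% of the cells without *Myf6* did. It was found in 0 of the 97 cells of *Myog* with *Mymk*. Per library it was found in 7, 4, 3 and 3 cells of control_4d, control_7d, RA_4d and RA_7d, too few to compare.

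**Figure D3:**
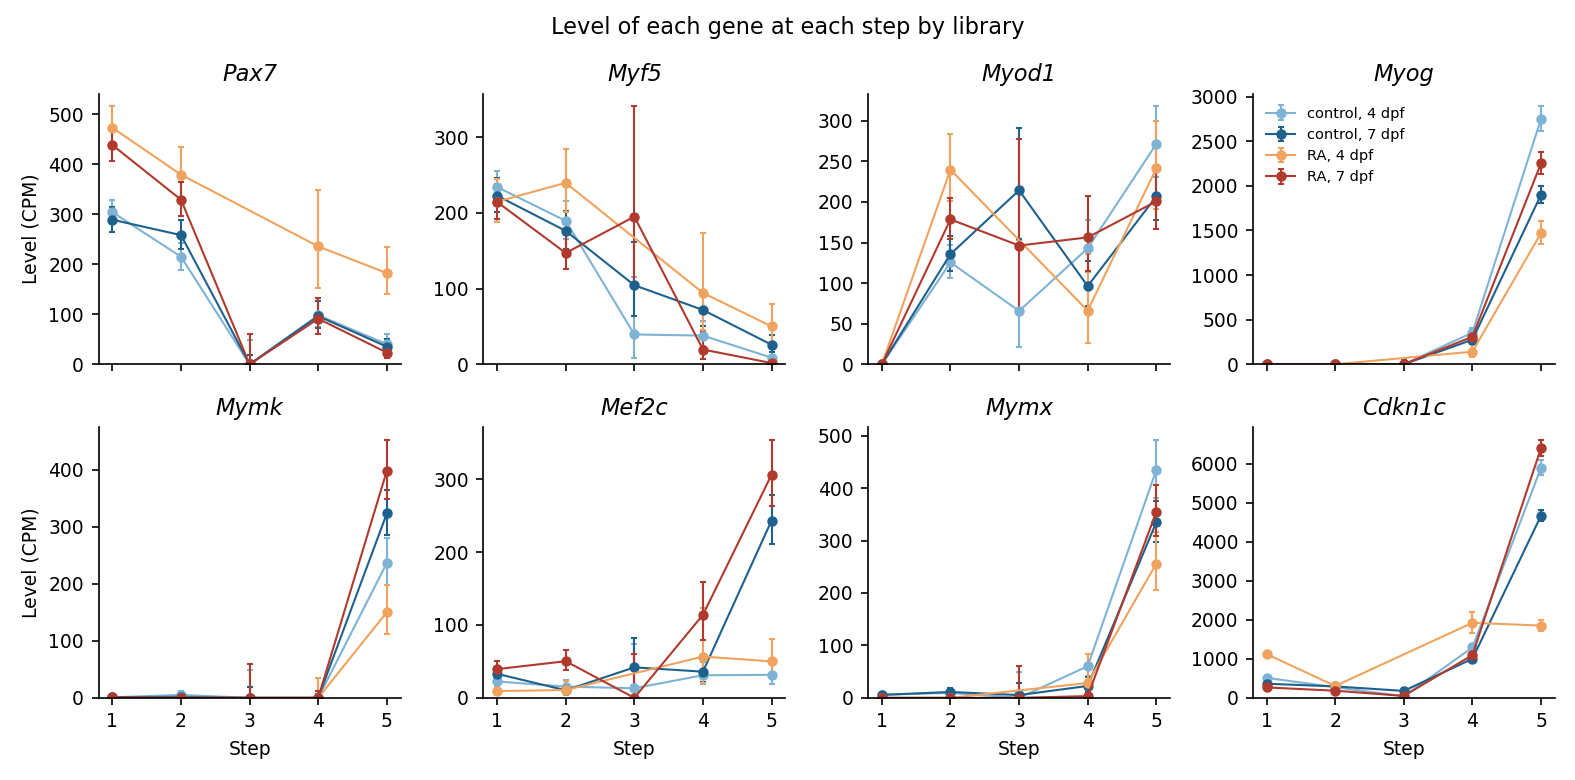
Level (y axis, CPM) in the summed cells of each step (x axis: 1 *Pax7* alone, 2 *Pax7* with *Myod1*, 3 *Myod1* without *Pax7*, 4 *Myog* without *Mymk*, 5 *Myog* with *Mymk*) by library; points with under 3 cells are left out and bars are exact 95% Poisson intervals. *Myf5* goes from 223 to 19.1 CPM over the summed libraries. *Mef2c* at step 5 is at 31.5 and 50.02 CPM in the 4 dpf libraries. It is at 243 and 306 CPM in the 7 dpf libraries, where a few cells hold most of its UMIs. Values of *Pax7*, *Myod1*, *Myog* and *Mymk* at 0 are set by the definition of a step.

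The other genes of the programme were described with lists for stem cell, contractile, fusion, regulator, Notch and cell cycle genes. A gene was counted as apart when the (CPM + 1) values of the summed steps were at least 2-fold apart, among genes with at least 50 UMIs over both. Between *Myog* with *Mymk* and *Pax7* alone, 17.8% of 10198 genes were apart, 479 higher and 1339 lower. Of the stem cell list, 9 of 13 were lower and 0 higher, with a median log2 ratio of −1.40 against −0.11 over all genes. *Calcr*, the calcitonin receptor gene of resting satellite cells, was at 123 CPM in *Pax7* alone and 2.54 CPM in *Myog* with *Mymk*, and *Chodl* at 294 and 20.8 CPM. Of the contractile list, 18 of 18 were higher, with a median of 4.63. *Acta1*, the skeletal α-actin gene, was at 8.12 CPM in *Pax7* alone, 13.8 CPM in *Myog* without *Mymk* and 1490 CPM in *Myog* with *Mymk*, and *Ttn*, which encodes titin, at 166, 518 and 1945 CPM.

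Much of the contractile rise fell between the 2 *Myog* steps, where 10.9% of 7671 genes were apart. All 18 tested contractile genes were higher in *Myog* with *Mymk*, with a median of 3.71 against −0.03 over all genes. Myosin genes of the early fibre were among them, with *Myh3* (embryonic myosin heavy chain) at 6.56 CPM before and 414 CPM after. Of the fusion and adhesion list, 4 of 9 were higher (*Mymx*, *Tmem182*, *Jam3* and *Elmo1*) and 1 lower (*Kirrel*). *Jam3*, a junctional adhesion gene, was at 152 and 314 CPM, and *Elmo1*, a gene of the Rac activation complex that fusion uses, at 32.2 and 120 CPM. *Cdh15* was not among them, at 169 and 142 CPM.

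Part of the stem cell list was lower already from *Pax7* with *Myod1* to *Myog* without *Mymk*, where 5.17% of 8923 genes were apart. There 5 of 13 were lower and 0 higher, against 9 of 13 over the whole sequence, among them *Calcr* at 110 and 3.28 CPM. Of the regulators and cofactors, 1 of 15 was higher (*Twist1*, at 9.25 and 24.3 CPM) and 2 lower, *Pax3* at 40.7 and 19.7 CPM and *Msc* (musculin, a repressor of the same helix-loop-helix family) at 55.7 and 17.1 CPM. The changes of *Twist1* and *Pax3* did not last. In *Myog* with *Mymk* they were at 3.81 and 36.4 CPM, against 11.3 and 45.9 CPM in *Pax7* alone. *Id3*, which encodes an inhibitor that binds the E-protein partners of *Myod1*, was at 454 CPM in *Pax7* alone, 278 CPM in *Myog* without *Mymk* and 136 CPM in *Myog* with *Mymk*. Of the partners themselves, *Tcf3*, *Tcf4* and *Tcf12*, none was apart between *Myog* with *Mymk* and *Pax7* alone. *Mef2a*, a close relative of *Mef2c*, went from 212 CPM in *Pax7* alone to 713 CPM in *Myog* with *Mymk*.

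Cell cycle genes separated the early steps. Between *Pax7* with *Myod1* and *Pax7* alone only 1.54% of 10609 genes were apart, and 5 of 12 cell cycle genes were among them, all higher with *Myod1*, with a median log2 ratio of 0.85 against 0.00 over all genes. *Top2a* (topoisomerase of dividing cells) was at 203 against 69.5 CPM and *Mki67* at 97.7 against 46.2 CPM, both higher in 4 of 4 libraries. At the 2 *Myog* steps *Top2a* stood at 129 and 132 CPM, and at the last it was 22.8 to 277 CPM by library. *Cdkn1c*, which encodes the cell cycle inhibitor p57, was at 515 CPM in *Pax7* alone, 258 CPM in *Pax7* with *Myod1*, 1195 CPM in *Myog* without *Mymk* and 5005 CPM in *Myog* with *Mymk*. RA_4d stood apart, with 1122 CPM of *Cdkn1c* in *Pax7* alone and 1854 CPM in its 8 cells of *Myog* with *Mymk*. *Cdkn1a* (p21) was at 157 and 526 CPM, *Rb1* at 56.0 and 263 CPM and *Ccnd3* at 201 and 209 CPM, in *Pax7* alone and *Myog* with *Mymk*. Between these steps 0 of 12 cell cycle genes were apart, with a median log2 ratio of 0.36 against −0.11 over all genes.

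Notch is a pathway that holds satellite cells in the stem state. Between *Myog* with *Mymk* and *Pax7* alone, 1 of 10 genes was higher and 4 were lower, where 479 of all 10198 genes were higher and 1339 lower. *Notch1*, *Notch3*, *Heyl* and *Hey1* are also in the stem cell list, so its count and this one overlap. *Dll1*, a ligand, rose from 13.4 to 116 CPM. The receptor *Notch3* fell from 253 to 34.3 CPM, the ligand *Jag1* from 41.4 to 8.48 CPM and the targets *Heyl* from 181 to 68.2 CPM and *Hey1* from 39.4 to 17.8 CPM. The receptors *Notch1* (116 and 109 CPM) and *Notch2* (127 and 88.2 CPM) were under 2-fold. *Rbpj*, the DNA-binding partner of the cleaved receptor, was at 98.8 and 152 CPM, which is under 2-fold.

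The order of the genes was also read from a measure that used no member. Its contractile and stem cell lists differed between the steps above and were chosen with earlier results of these data known. It is therefore no independent check of the order. Each cell was given log2 of its contractile list CPM plus 100 over its stem cell list CPM plus 100, and the 833 cells were ranked from 0 to 100. The mean rank of the cells with a UMI was 45.7 (SE 1.12) for *Myf5*, 46.4 (SE 1.02) for *Pax7*, 56.4 (SE 1.59) for *Myod1*, 60.2 (SE 5.88) for *Myf6*, 65.7 (SE 2.06) for *Mef2c*, 82.3 (SE 1.25) for *Myog* and 89.4 (SE 1.08) for *Mymk*. The SE is over cells, which are not replicates. *Myf5* and *Pax7* differed by less than their errors, and so did *Myf6* and its neighbours. *Mymx* was at 88.7, within the error of *Mymk*. These means pool libraries whose median ranks ran from 72.75 in control_4d to 33.85 in RA_7d. In each of the 4 libraries *Pax7* and *Myf5* had lower means than *Myod1*, and *Mef2c*, *Myog* and *Mymk* followed it in that order, with *Mef2c* only just after it in control_7d (63.0 and 62.4). *Myf6* was the exception, before *Myod1* in control_7d (52.25 and 62.4) and RA_4d (49.8 and 53.2) and after it in the other libraries. The rank rose with depth, with a Pearson r of 0.648 between the measure and log10 UMIs over the 833 cells of 4 libraries, given as a description.

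Along 5 bins of equal size of that rank, *Pax7* was found in 97.6% of the cells of the first bin and 66.3% of the last, or 88.6% and 29.5% after thinning. *Myog* was found in 1.198%, 1.198%, 5.42%, 28.7% and 64.5% of the cells of the bins in order, and *Mymk* in 0%, 0.599%, 0.602%, 9.58% and 52.4%. *Myod1* did not follow a single direction. It was found in 46.7% of the first bin, 32.3% of the second, 36.8% of the third, 44.3% of the fourth and 75.3% of the last, and thinning kept the dip, at 35.9, 19.2, 15.1, 17.4 and 40.4%.

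**Figure D4:**
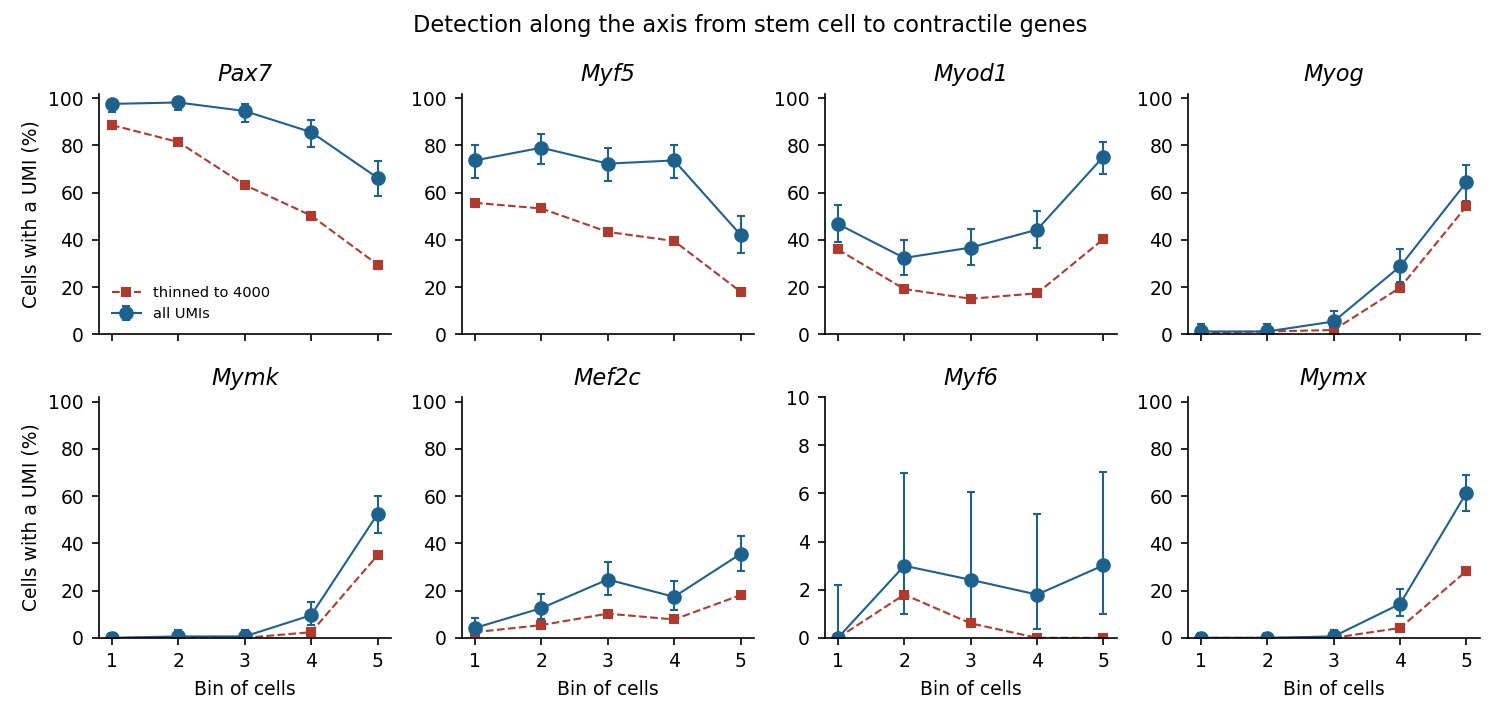
Share of cells with a UMI (y axis, percent) in 5 equal bins of the 833 muscle lineage cells ranked from stem cell to contractile genes (x axis); circles use all UMIs with exact 95% intervals, squares cells thinned to 4000 UMIs, and the *Myf6* panel has its own y axis. *Pax7* and *Myf5* are lowest in the last bin, *Myog* and *Mymk* highest, and *Myod1* is high at both ends (46.7% and 75.3%).

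The genes whose log2(CPM + 10) followed each member most closely over the 15 sums of a step in a library with at least 10 cells were sought among 7685 genes. For *Myog* they were *Zbtb18* (r = 0.980), *Dok7* (r = 0.979) and *Rbm24* (r = 0.975), and for *Mymk* *Mylk4* (r = 0.987), *Acta1* (r = 0.984) and *Myl4* (r = 0.980). For *Pax7* they were *Cdc42ep1* (r = 0.953), *Tshz3* (r = 0.945) and *Vgll3* (r = 0.936), and for *Myf5* *Msc* (r = 0.944), *Islr* (r = 0.944) and *Iqgap2* (r = 0.938). The closest gene to *Myod1* was *Pgp* (r = 0.825) and to *Mef2c* *Atp1b3* (r = 0.890). For *Myf6* the values rest on 19 UMIs and are not given. The steps are defined by *Pax7*, *Myod1*, *Myog* and *Mymk*, so the r values of these members are partly set by the definition. The sums share libraries, and these are descriptions.

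The size of the lineage was compared between conditions first. It made up 3.31% (2.85 to 3.82%) of the kept cells of control_4d, 3.47% (3.07 to 3.90%) of control_7d, 2.43% (1.98 to 2.95%) of RA_4d and 3.48% (3.09 to 3.90%) of RA_7d. RA_4d was the lowest, with an interval that overlapped only that of control_4d, and the other 3 overlapped each other. RA over control gave 0.735 (0.570 to 0.944) at 4 dpf and 1.00 (0.846 to 1.19) at 7 dpf. The share depended on the other cells of a library. Over cells without a *Ptprc* UMI, the lineage was 9.37%, 5.91%, 6.84% and 4.76% of control_4d, control_7d, RA_4d and RA_7d, and RA over control gave 0.730 at 4 dpf and 0.805 (0.679 to 0.955) at 7 dpf. The ratio of RA_7d to RA_4d was 1.43 over all kept cells and 0.696 over cells without *Ptprc*.

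Among muscle lineage cells, *Myog* was found in 21.0% (15.3 to 27.7%) of control_4d, 25.9% (20.8 to 31.7%) of control_7d, 12.0% (6.36 to 20.02%) of RA_4d and 17.1% (13.0 to 22.0%) of RA_7d. Both RA shares were under their controls, with a ratio of 0.572 (0.272 to 1.12) at 4 dpf and 0.661 (0.448 to 0.966) at 7 dpf. The RA cells were also shallower on both days, and the part of depth was not tested. At 4 dpf the ratio was 0.517 (0.204 to 1.17) after thinning to 4000 UMIs and 0.555 (0.219 to 1.25) after thinning to 10000 UMIs. After thinning every cell to 4000 UMIs the ratio at 7 dpf was 0.706 (0.466 to 1.06), and after thinning to 10000 UMIs, which left out the shallower cells and kept 205 of control_7d and 152 of RA_7d, it was 1.065 (0.704 to 1.60). The cells left out at 10000 UMIs were not spread evenly over the steps, since the median depth in RA_7d was 8179 UMIs in *Pax7* with *Myod1* and 19456 UMIs in *Myog* with *Mymk*, so the last value does not compare the same cells. The cell filter moved with the 4 dpf values. Without its upper limits the shares were 26.7% of 243 cells of control_4d and 19.7% of 127 cells of RA_4d.

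*Mymk* was found in 12.7% of the cells of control_4d, 15.8% of control_7d, 8% of RA_4d and 11.2% of RA_7d, and RA over control had an interval that included 1 on both days (0.244 to 1.46 and 0.433 to 1.15). Without the upper limits of the filter the shares were 18.1%, 16.1%, 19.7% and 11.4%, and the direction between RA and control at 4 dpf was turned. For *Myf5* the shares were 74.0%, 69.2%, 77.0% and 60.5%, the intervals of RA_4d (67.5 to 84.8%) and RA_7d (54.6 to 66.2%) lying apart, and 43.1%, 39.1%, 48.0% and 41.3% after thinning to 4000 UMIs. *Myod1* was found in 44.2%, 47.7%, 45.0% and 49.0%. These *Myod1* shares lay within 5 points of each other. After thinning to 4000 UMIs they were 19.3%, 23.3%, 24.0% and 29.7%, with both RA shares above their controls. RA over control then had an interval that included 1 on both days (0.706 to 2.15 and 0.908 to 1.80).

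The levels over all muscle lineage cells of a library were compared next. At 4 dpf 4.11% of 9278 genes were at least 2-fold apart between RA and control, and at 7 dpf 6.95% of 10063. Of the 6 members with enough UMIs, 0 were apart on either day. *Pax7* came closest. It was at 218 CPM in control_4d, 199 CPM in control_7d, 389 CPM in RA_4d and 300 CPM in RA_7d, so both RA libraries were above both controls; *Pax7* is one of the genes of the gate. Its log2 ratio between RA and control was 0.83 (0.70 to 0.97) at 4 dpf and 0.59 (0.46 to 0.72) at 7 dpf. The mean of the ratios within steps that had at least 20 cells in both libraries was 0.72 over 2 steps at 4 dpf and 0.13 over 3 steps at 7 dpf, where *Myog* with *Mymk* went the other way. In *Pax7* alone cells, which a *Pax7* UMI defines and whose median depth was 23360, 12734, 16728 and 10076 UMIs in control_4d, control_7d, RA_4d and RA_7d, the levels were 304, 289, 473 and 439 CPM, given as a description. The share of cells with a *Pax7* UMI after thinning to 4000 UMIs was 59.7%, 51.9%, 74.0% and 67.5% in control_4d, control_7d, RA_4d and RA_7d.

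*Myog* was at 384 CPM in control_4d, 390 CPM in control_7d, 247 CPM in RA_4d and 397 CPM in RA_7d. RA_4d was below the other 3, with a log2 ratio of −0.64 (−0.78 to −0.50), and it is the library in which 5 cells held 94.0% of the *Myog* UMIs. *Myf5* was at 167, 151, 189 and 142 CPM and *Myod1* at 84.4, 94.0, 107 and 104 CPM in control_4d, control_7d, RA_4d and RA_7d. Their log2 ratios of RA to control were 0.17 and −0.09 for *Myf5* and 0.34 and 0.14 for *Myod1*. The means within steps of at least 20 cells were 0.11 and −1.21 for *Myf5* and 0.46 and 0.12 for *Myod1*.

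Between the days, 3.08% of 10163 genes were apart in control and 7.21% of 9060 in RA. *Mef2c* was apart in both and *Mymk* in RA. *Mef2c* was at 22.7 CPM in control_4d and 67.5 CPM in control_7d, a log2 ratio of 1.53 (1.25 to 1.90), and at 18.7 CPM in RA_4d and 92.3 CPM in RA_7d, a log2 ratio of 2.25 (1.82 to 2.82). Both 7 dpf libraries were above both 4 dpf libraries. Within steps of at least 20 cells, which left out *Myog* with *Mymk* because control_4d has 18 and RA_4d 8 cells there, the mean log2 ratio was 0.07 in control and 2.06 in RA. The share of cells with a *Mef2c* UMI did not follow, at 22.7%, 17.7%, 14% and 19.2% in control_4d, control_7d, RA_4d and RA_7d. The 5 cells with most *Mef2c* held 50.5%, 62.6%, 71.8% and 48.4% of its UMIs in these libraries.

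Endothelial and pericyte RNA moved with part of this. In RA_7d, 12 gated cells carried endothelial or pericyte markers and held 23.0% of the *Mef2c* UMIs. The 31 cells with under 3 muscle markers held 39.1%, and these were not all of those cell types. Among them were cells with 53 and 30 *Mef2c* UMIs, both at *Myog* with *Mymk* and with 0 UMIs of *Pecam1*, *Cdh5* and *Rgs5*. Leaving out this group thus also left out muscle cells of the last step. Without only the cells of endothelial or pericyte markers, *Mef2c* was at 20.6, 61.0, 17.5 and 76.8 CPM in control_4d, control_7d, RA_4d and RA_7d. There RA_7d stayed above control_7d. Without both kinds of cell, a comparison added after the values had been seen, *Mef2c* was at 19.9 CPM in control_4d, 63.0 CPM in control_7d, 17.9 CPM in RA_4d and 51.3 CPM in RA_7d. The ratio of 7 to 4 dpf was then 3.17 (2.48 to 4.08) in control and 2.87 (1.99 to 4.25) in RA, and RA_7d over control_7d gave 0.814 (0.663 to 0.997), where all gated cells gave a log2 ratio of 0.45 in the other direction.

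*Mymk* was at 30.9 CPM in control_4d, 61.7 CPM in control_7d, 24.4 CPM in RA_4d and 65.9 CPM in RA_7d. The log2 ratio of 7 to 4 dpf was 0.97 (0.70 to 1.30) in control, just inside 2-fold, and 1.40 (0.99 to 1.90) in RA. Within the steps of at least 20 cells, in which *Mymk* is near 0, the means were −0.34 and 0.36. On both days RA and control differed by less than the counting interval, with −0.33 (−0.83 to 0.13) at 4 dpf and 0.09 (−0.16 to 0.35) at 7 dpf. The means within steps for RA to control were −1.77 at 4 dpf, again with *Mymk* near 0, and −0.50 at 7 dpf. The comparisons with a library in common are not independent of each other.

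**Figure D5:**
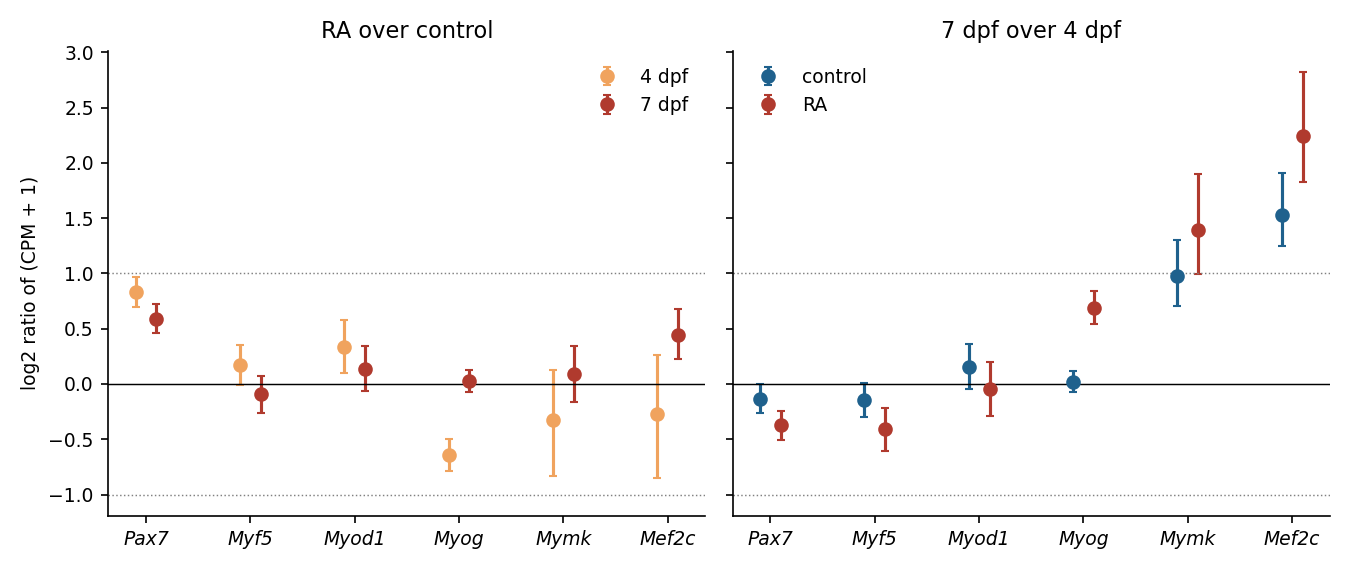
Log2 ratio of (CPM + 1) over the muscle lineage cells of a library (y axis) for the 6 genes with at least 50 UMIs, for RA over control on each day (left) and 7 over 4 dpf in each condition (right); bars are 95% Poisson intervals and dotted lines mark 2-fold. Left, all points lie inside 2-fold; right, *Mef2c* lies above it in both conditions (1.53 and 2.25) and *Mymk* in RA (1.40).

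Around the members, the cell cycle list stood out in the comparison of RA with control at 7 dpf. Of its 12 genes, 9 were at least 2-fold lower in RA_7d and 0 higher, with a median log2 ratio of −1.37 against 0.02 over all genes. *Top2a* had −1.43, *Mki67* −1.37 and *Birc5* −1.80, while the replication gene *Pcna* had −0.37. Within steps of at least 20 cells, 9 of 12 were lower, with a median of −1.71, where 3.41% of all genes tested were lower. *Top2a* in *Pax7* alone cells was at 131 CPM in control_7d, and at 42.6 to 54.4 CPM in the other 3 libraries. At 4 dpf 1 of 12 was lower (*Birc5*, −1.45). In control, 3 of 12 were higher at 7 than at 4 dpf (*Top2a* 1.40, *Cenpf* 1.28 and *Cdk1* 1.03).

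Of the stem cell list at 7 dpf, 4 of 13 were higher in RA_7d than in control_7d and 0 lower, with a median of 0.47. Of all genes tested, 459 were higher and 240 lower on that day, and 179 and 202 at 4 dpf. *Calcr* (1.68), *Chodl* (1.59) and *Sdc4* (1.36) were among the 4 higher genes of the stem cell list. Within steps 1 of 13 was higher (*Calcr*, 1.76), where 3.85% of all genes were. At 4 dpf 1 of 13 was higher (*Chodl*, 1.55). Of the regulators and cofactors, 2 of 14 were higher in RA at 4 dpf and 2 of 15 at 7 dpf, and 0 lower, too few to set apart from all genes. *Pax3*, the paralogue of *Pax7*, was one of them on both days (1.199 and 1.43). Of the fusion and adhesion list 1 gene was lower on each day (*Jam2* and *Tmem182*), and of the 4 cell cycle exit genes 0 were apart. Of the dissociation response list, 3 of 6 were higher in RA_7d (*Egr1* 1.60, *Atf3* 1.42 and *Fos* 1.18) and 0 lower. In RA at 4 dpf 2 of 6 were higher and 0 lower, and within steps 2 of 6 were higher on each day. The part of this list in the other differences was not tested. The Notch list had 0 of 10 genes apart at 4 dpf and 0 of 11 at 7 dpf, with *Rbpj* at 0.39 and 0.29.

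The contractile list differed between the days in RA over all cells, but not in that direction within the 2 steps that could be compared. Between RA_7d and RA_4d, 8 of 17 genes were higher and 2 lower, with a median of 0.85 against 0.08. *Tnnc1* (3.42), *Tnnc2* (3.34) and *Acta1* (2.83) were among the higher and *Tnnt1* (−1.74) among the lower. Within the 2 steps of at least 20 cells, both before *Myog*, 2 of 17 were higher and 7 lower, with a median of −0.45, where 6.45% of all genes were higher and 1.69% lower. In control 3 of 18 were higher and 1 lower, with *Casq2* at 3.20 and *Tnnt1* at −1.63, while within 3 steps 1 was higher and 13 were lower, where 3.48% and 1.67% of all genes were. Between RA and control at 4 dpf, 2 of 15 were lower, *Acta1* with −2.25 and *Tnnc2* with −1.68, and within 2 steps 10 of 15 were lower, where 4.31% of all genes were. The contractile list summed to 893 CPM in *Pax7* alone cells of control_4d, 348 CPM of control_7d, 554 CPM of RA_4d and 141 CPM of RA_7d. Both 4 dpf sums lay above both 7 dpf sums, with 1 library for each and no replicate check. In *Myog* with *Mymk* the list summed to 10516, 10446, 7616 and 12863 CPM in control_4d, control_7d, RA_4d and RA_7d. There RA_7d lay above RA_4d, which has 8 cells at that step.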

How the data were processed

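The 4 libraries were made by the authors with Chromium Single Cell 3′ v3.1 chemistry and deposited as raw counts of UMIs per gene and cell barcode. The submitters' processing notes name Cell Ranger 7.0.1 and mm10. Gene names are those of the files. No sample had a column of another series.

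From these counts, cells with 4000 to 50000 UMIs, 2000 to 7000 features and at most 8% mitochondrial UMIs were kept, the limits of the paper's methods. The kept cells held 83405494 to 156567619 UMIs per library, and the muscle lineage cells 4623342 (control_4d), 4519910 (control_7d), 2089021 (RA_4d) and 3629144 (RA_7d). Doublets were called with Scrublet in scanpy 1.11.5 and kept in the main values (16 of the 833 muscle lineage cells). The other classes were taken in a fixed order by single marker genes, without clustering.

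Shares have exact Clopper-Pearson intervals, levels exact Poisson intervals and ratios exact conditional intervals, all at 95%. A share of 0 allows up to 3 counts of the total. Intervals and floors cover counting error only, and no interval covers the difference between animals. Levels are UMIs per 1000000 UMIs (CPM) of the summed cells. Log2 ratios were taken with 1 CPM added as pseudocount. Only genes reaching 50 UMIs over both sums were compared. With 1 library per group no test was made and no p-value is given. The calculation was tested on simulated data. Python 3.11.15, numpy 2.4.6, scipy 1.17.1, pandas 2.3.3 and matplotlib 3.10.9 were used.

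The genes, gene lists, steps and markers were chosen with earlier results of these data known. The genes named are the 7 members, the genes of the lists, the markers and, for each member, up to 3 genes that follow it most closely; comparisons between steps over all genes were added after the values had been seen. Alternatives were a looser cell filter, doublets left out, at least 2 factor UMIs, *Cdh15* added to the gate, cells without *Ptprc* as denominator, at least 2 *Myog* UMIs, thinning, a pseudocount of 10 CPM, scaling by TMM, a lower limit of 10 UMIs per gene, the mean within steps and a principal component as the axis. No upper limits on UMIs and features, and *Mef2c* without cells of endothelial or pericyte markers or under 3 muscle markers, were added after seeing the data. Sequences are from RefSeq and positions from GENCODE M21. Values of some genes of the lists are not reported here.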

Additional observations from a re-analysis of the deposited data

Results flagged for a closer look

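The cell filter left out barcodes that passed the gate, 81 and 35 in control at 4 and 7 dpf and 37 and 47 in RA, and these are data that the comparisons above do not use. Most of those at 4 dpf were left out for more than 50000 UMIs, which held for 57 in control_4d and 27 in RA_4d. *Myog* was found in 37.0% (26.6 to 48.5%) of those of control_4d, 28.6% (14.6 to 46.3%) of control_7d, 37.8% (22.5 to 55.2%) of RA_4d and 12.8% (4.83 to 25.7%) of RA_7d. At 4 dpf this was above the 21.0% and 12.0% of the kept cells. *Myog* with *Mymk* was the step of 20 of the 81 barcodes in control_4d and 12 of the 37 in RA_4d.

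A second set outside the gate was 186 kept cells with a *Ptprc* UMI and a UMI of *Pax7*, *Myod1* or *Myog*. Of these, 81 (43.5%) held at least 3 of the 6 muscle markers and 26 were called as doublets, against 16 of the 833 gated cells. *Myog* was found in 88 of them, and in 36 of the 57 such cells of control_4d.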

How the results depend on the processing

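No paired analysis was possible because each condition has 1 library and the labels give no replicate numbers. With cells without *Ptprc* as the denominator, the ratio of lineage shares was 0.805 for RA_7d to control_7d, 0.631 for control_7d to control_4d and, reversed, 0.696 for RA_7d to RA_4d. With thinning to 10000 UMIs, the ratio of *Myog* shares of RA_7d to control_7d was reversed at 1.065. The other alternatives for these shares stayed inside the interval of the reported value. Among member ratios, the mean within steps of at least 20 cells reversed *Pax7* (0.054) and *Mymk* (−0.34) for control_7d to control_4d and moved 13 others outside their interval, while TMM scaling moved 0 of 24. The count of genes at least 2-fold apart depended on the low counts allowed. With at least 10 UMIs it was 1015 and 1247 for RA to control at 4 and 7 dpf, and 785 and 1533 for 7 to 4 dpf in control and RA, and with a pseudocount of 10 CPM it was 105, 285, 91 and 350, against 381, 699, 313 and 653. Thinning to 10000 UMIs moved 7 of 20 step shares outside their interval, among them *Pax7* with *Myod1* in 3 of 4 libraries, the looser filter 0 of 20, and no upper limits 2 of 20 (*Pax7* alone in control_4d, 42.8%, and *Myog* with *Mymk* in RA_4d, 15.75%). With the first principal component as the axis the mean rank was 61.1 for *Mef2c*, 79.2 for *Myog* and 86.6 for *Mymk*, and the order of the members over all cells was the same. Within libraries it was not, since *Mef2c* came before *Myod1* in control_4d (70.9 and 71.6) and control_7d (68.1 and 69.9). The causes were not tested. Depth limits *Myf6*, with 19 UMIs in all.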
